A study of Mus musculus with 32 samples.

Results

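The comparison described here set the embryonic mouse brain against the adult preoptic area in total gene expression, that is, in the reads of both parental alleles added together. The preoptic area, in front of the hypothalamus proper, holds neurons for thermoregulation, sleep, reproduction and parental behaviour. Members were chosen by tissue: the 2 pools of embryonic brain and the 4 pools of preoptic area from F1 hybrid animals, 6 of the 10 F1 pools and 16 of the 32 libraries of the series. Genes entered through the sequence differences (single nucleotide polymorphisms, SNPs) between the parental strains that were listed in both tissues' tables. That left 12837 autosomal genes with a shared SNP, of which 12305 passed the filter on low counts and were tested, out of 18508 gene symbols in the series.

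All 6 pools were hybrids of the inbred strains CAST/EiJ and C57BL/6J. The cross named F1i had a CAST/EiJ mother and a C57BL/6J father, and the cross named F1r the reverse. The strain labels of the F1r pools carry the abbreviation F1i beside these parents, and the cross was taken from the parents and titles. Embryonic RNA came from whole brain at embryonic day 15 (E15), with 1 pool per cross, 4 to 5 individuals per pool and a sex that the labels do not give. Preoptic RNA came from animals of 5 weeks, with 1 male and 1 female pool per cross and 8 to 10 individuals per pool. The labels name no transgene, mutation or treatment. Age, brain region, pool size, the number of technical libraries summed per pool (4 for E15 and 2 for the preoptic area) and possibly sex therefore changed together between the groups, and their parts in a difference cannot be told apart. Each pool is the unit of replication, and the p-values measure only the spread between these pools, which the test partly borrows from other genes.

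As background, at embryonic day 15 the mouse brain still produces neurons. Radial glia and intermediate progenitors divide along the ventricles, and their daughters migrate, extend axons and begin to express synaptic proteins. Astrocytes, myelinating oligodendrocytes and mature synapses form largely around and after birth, and in the same period several receptors and transporters change from an embryonic to an adult subunit. In bulk tissue, a change in the number of cells of a type and a change in the RNA per cell cannot be told apart.

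The embryonic pools held 10226362 (F1i) and 10564927 (F1r) informative reads on the shared autosomal SNPs used. The preoptic pools held 3360412 (F1i male), 3810997 (F1r male), 6779100 (F1i female) and 7183457 (F1r female). Levels below are RPM, reads per pool scaled to a common total and by the trimmed mean of M values (TMM), and a gene's values are given in RPM in the order F1i and F1r for the embryo and F1i male, F1r male, F1i female and F1r female for the preoptic area. A level depends on how many SNPs a gene holds, so it can be set against another pool's level of the same gene and not against another gene's. The log2 difference is E15 minus preoptic area with its standard error (SE), from edgeR's quasi-likelihood test with the cross as a covariate, and p-values were adjusted by the Benjamini-Hochberg method over all genes tested. The 2 embryonic pools differed more from each other than the preoptic pools did: of 7657 genes with at least 20 RPM, 9.40% differed by more than 2-fold between the crosses at E15 and 0.0261% to 0.509% between any 2 preoptic pools. The edgeR fit nevertheless assumed the same spread in both tissues. It had 3 residual degrees of freedom per gene and a median of 7.43 prior degrees of freedom drawn from the other genes. At an adjusted p under 0.05 it called 7735 genes, and limma-voom, an alternative tool run with a variance per tissue, called 6041.

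The tissue labels were checked against markers. Gnrh1, the hormone that drives the reproductive axis, had 0.778 and 0.629 in the embryonic pools and 9.74, 5.05, 11.7 and 9.37 in the preoptic pools. The oestrogen receptor gene Esr1 had 0.292 and 0.449 in the embryonic pools and 3.96, 4.52, 2.86 and 2.94 in the preoptic pools. Both genes, each on 1 SNP, were higher in all 4 preoptic pools than in either embryonic pool. The vesicular glutamate transporter gene Slc17a7, abundant in cortex, had 1.52, 1.06, 1.66 and 2.1 in the preoptic pools. In the embryo, 14 Hox genes, which pattern the hindbrain, were listed. No member of the pituitary list reached the test, and Gh and Lhb were listed in the embryonic table only, at 0.489 and 0.442 RPM.

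Gene expression differed widely between the tissues. At an adjusted p under 0.05, 7735 of 12305 genes differed, 62.9% of those tested, with 3946 (32.1%) higher at E15 and 3789 (30.8%) higher in the preoptic area. By at least 2-fold, 4700 genes differed (38.2%), 2366 of them higher at E15 and 2334 higher in the preoptic area. The pools of the 2 tissues did not overlap for 8368 genes, 68.0% of those tested. The median log2 difference over all genes was 0.03, and the median size of a difference, whatever its sign, was 0.77. With so many genes called, a list of genes is read below against these shares, and the lists were described by their counts and medians without a test of the list.

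Among genes with at least 3 shared SNPs, a mean of at least 50 reads and pools that did not overlap, the lowest difference was that of Mbp (chr18:82644538-82755029, plus strand in mm9), which encodes myelin basic protein. Mbp had 29.96 and 18.4 in the embryonic pools and 4160, 3773, 4334 and 4124 in the preoptic pools (log2 difference -7.43, SE 0.21, adjusted p = 8.7e-09). After it came Mag, Mal, Ntsr2, Gfap, Hapln4, Agt, Rasgrf1, Itih3 and Scn2b, from -6.88 to -5.11. Hapln4, which encodes a link protein of the matrix around neurons, had 3.5 and 3.41 in the embryonic pools and 149, 152, 166 and 145 in the preoptic pools. Itih3, a subunit gene of an inter-alpha-trypsin inhibitor, had 13 and 7.01 in the embryonic pools and 388, 376, 413 and 358 in the preoptic pools.

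At the other end stood Cd24a (chr10:43298975-43304068, plus strand), a surface glycoprotein of newborn neurons, with 1580 and 1930 in the embryonic pools and 21.6, 30.6, 26.9 and 28.8 in the preoptic pools (log2 difference 6.02, SE 0.13, adjusted p = 3.5e-09). Among the 10 highest there followed Ybx1, Tubb2b, Zfp811, Vash2, Mab21l1, St8sia2, Sox4 and Ezh2, from 4.78 down to 4.32. St8sia2, which adds polysialic acid to the neural cell adhesion molecule, had 257 and 237 in the embryonic pools and 9.44, 16.2, 10.2 and 9.37 in the preoptic pools. Vash2, a tubulin carboxypeptidase gene, had 359 and 226 in the embryonic pools and 12.5, 15.1, 11.7 and 11.9 in the preoptic pools. Both embryonic pools lay above all preoptic pools in each of these 9 genes, but Ybx1 was uneven at E15, with 74.5 and 477 RPM in the 2 crosses. Of the F1r reads of Ybx1, 5253 of 5304 stood on 1 of its 4 SNPs, whose own log2 differences ran from 1.45 to 5.35 with a median of 1.88. Without that SNP Ybx1 differed by 2.28. Without the F1i or the F1r embryonic pool the difference was 5.77 and 3.49 for Ybx1, 3.79 and 5.12 for Mab21l1 and 3.57 and 5.04 for Ezh2.

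**Figure D1:**
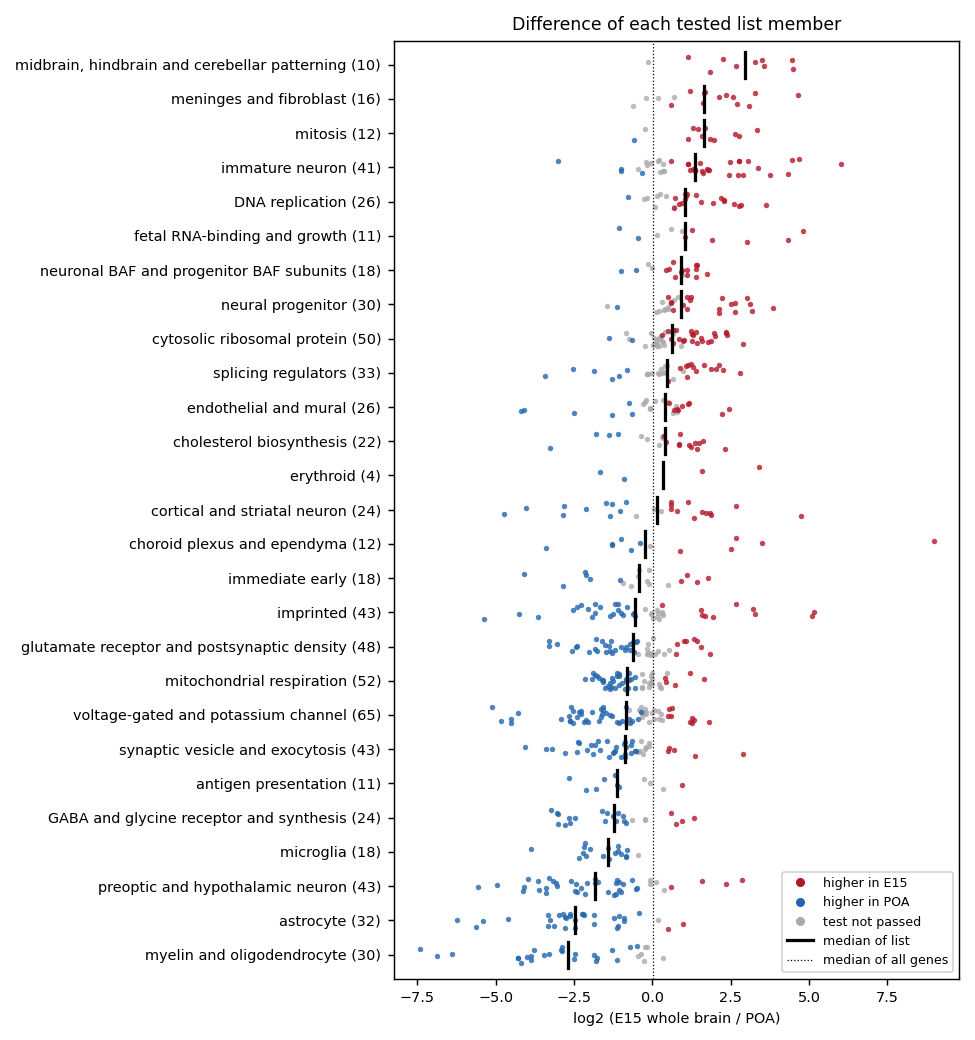
Log2 difference between E15 whole brain and the preoptic area (POA) for every tested member of 27 gene lists, 1 row per list with the number of tested members in brackets; red and blue points passed the test in the direction given, grey points did not, the bar is the list's median and the dotted line the median of all genes tested. Myelin and astrocyte genes lie furthest towards the preoptic area, with medians of -2.7 and -2.47, and the patterning genes furthest towards E15, with a median of 2.97.

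Genes that lacked a shared SNP could not be tested, and they were not spread evenly over the lists. In each table, no SNP had 0 reads in any pool of the tissue, so a gene with very little RNA in a tissue tended not to be listed there. Of the autosomal symbols in the embryonic table, 4469 had no SNP in common with the preoptic table, and 1068 preoptic symbols had none in common with the embryonic table; the embryonic pools also held more reads. Of the mitosis list, 27 of 46 symbols were listed in the embryonic table only, and of the midbrain, hindbrain and cerebellar patterning list 36 of 60. Of the myelin list, 4 of 40 were listed in the preoptic table only. The tested members of such lists are thus those with detectable reads in all 6 pools, and the counts below do not stand for whole lists.

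**Figure D2:**
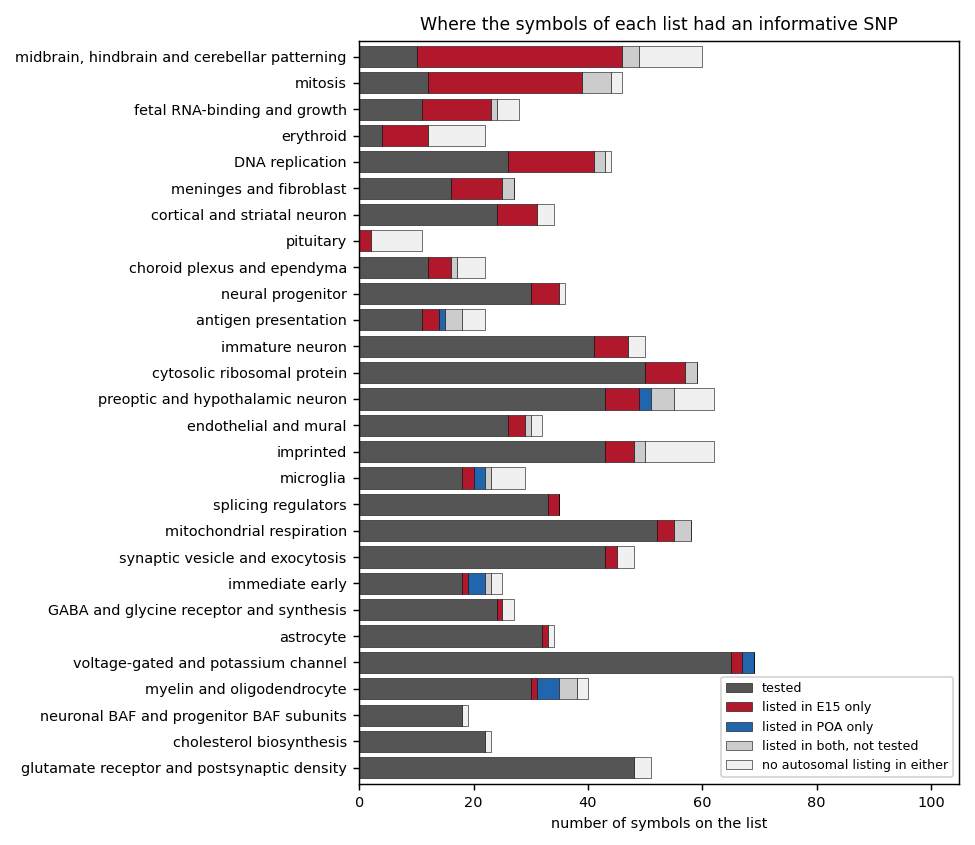
Number of symbols of each gene list that were tested, that had informative SNPs in the embryonic (E15) table only, in the preoptic (POA) table only, in both tables without being tested, or in the autosomes of neither. Red, the embryonic table only, takes 36 symbols of the patterning list and 27 of the mitosis list, and blue, the preoptic table only, 4 of the myelin list.

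Genes of DNA replication were mostly higher at E15. Of 26 tested members 18 were higher at E15, 1 was higher in the preoptic area and 7 did not pass the test, with a median log2 difference of 1.04 against 0.03 for all genes. The helicase that unwinds DNA at replication forks is built of the MCM proteins. Mcm7 had 119 and 95 in the embryonic pools and 12.8, 14.1, 15.4 and 17.2 in the preoptic pools (log2 difference 2.83, SE 0.18, adjusted p = 6.5e-07). Mcm3 had 22.7 and 23.4 in the embryonic pools and 1.83, 2.92, 2.11 and 0.979 in the preoptic pools (log2 difference 3.62, SE 0.32, adjusted p = 5.2e-06). Both were several-fold above every preoptic pool in each cross. Mcm2 and Mcm5 differed by 2.77 (SE 0.22) and 2.61 (SE 0.23) on the log2 scale. Cdt1, a licensing factor that loads the helicase, had 5.54 and 6.38 in the embryonic pools and 11.9, 9.03, 7.98 and 11.9 in the preoptic pools (log2 difference -0.77, SE 0.27, adjusted p = 0.03); the call was lost, or the sign turned, in 10 of the alternatives tried, among them the fits without either embryonic pool (-0.74 and -0.78). Top2a, the topoisomerase of dividing cells, was listed in the embryonic table only, at 204 RPM of that table, as were Uhrf1 at 22.4 and Pole at 13.5.

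Of the 12 tested mitosis genes 10 were higher at E15 and 1 was higher in the preoptic area, and the median log2 difference was 1.63. Ncapd2, a subunit of condensin, which packs chromosomes, had 243 and 137 in the embryonic pools and 54.8, 36.9, 51.3 and 45.5 in the preoptic pools (log2 difference 1.97, SE 0.16, adjusted p = 2.8e-06). Racgap1, which acts at the midbody in cell division, had 39.8 and 24.1 in the embryonic pools and 4.57, 5.31, 5.12 and 4.9 in the preoptic pools (log2 difference 2.64, SE 0.23, adjusted p = 5.5e-06). The spindle checkpoint gene Mad2l1 had 25.4 and 9.88 in the embryonic pools and 2.44, 1.33, 1.36 and 1.54 in the preoptic pools, and Smc2, a condensin core subunit, had 2.53 and 10.1 in the embryonic pools and 1.22, 0.797, 0.903 and 0.560 in the preoptic pools. In these genes each embryonic pool lay above all preoptic pools, although the 2 crosses differed by over 2-fold at E15 in Mad2l1 and Smc2, whose differences without the F1i or the F1r embryonic pool were 2.74 and 3.86 and 3.93 and 1.3. Bub3, a checkpoint protein with other roles, went the other way, with 27.4 and 32.5 in the embryonic pools and 47.2, 50.7, 43 and 40.9 in the preoptic pools (log2 difference -0.6, SE 0.18, adjusted p = 0.013); that call was lost in 3 alternatives, among them the fit without the F1r male preoptic pool (-0.55). Symbols listed in the embryonic table only included the proliferation marker Mki67 at 186 RPM, the spindle genes Aspm at 69.7 and Tpx2 at 48.7, the centromere genes Cenpe at 66.6 and Cenpf at 64.4, and the kinase Cdk1 (Cdc2a in the table) at 18.4.

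Since most tested members of both lists were higher at E15, the 250 bases before the start of 3 of them are shown, from RefSeq on GRCm38.p6, to let the letters that promoters of cell cycle genes often share be seen.
Mcm3 and Mcm7 stand for the helicase and Ncapd2 for mitosis.
Capitals mark any match, on either strand, to 3 E2F-type words (TTTGGCGC, TTTCCCGC or TTTGGCGG), to CCAAT, which NF-Y binds, or to TTTGAA, the cell cycle homology region; matches may overlap.
Mcm3 (chr1:20820313-20820562, minus strand): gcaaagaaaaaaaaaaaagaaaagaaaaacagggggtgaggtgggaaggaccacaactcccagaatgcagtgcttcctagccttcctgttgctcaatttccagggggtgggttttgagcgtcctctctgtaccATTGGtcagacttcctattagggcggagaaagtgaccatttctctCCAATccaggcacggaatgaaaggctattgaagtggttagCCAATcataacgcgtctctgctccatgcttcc
Mcm7 (chr5:138171884-138172133, minus strand): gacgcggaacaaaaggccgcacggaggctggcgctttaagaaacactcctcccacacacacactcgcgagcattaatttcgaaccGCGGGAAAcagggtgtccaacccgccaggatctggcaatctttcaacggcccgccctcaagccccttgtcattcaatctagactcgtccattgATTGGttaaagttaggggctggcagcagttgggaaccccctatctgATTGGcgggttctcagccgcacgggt
Ncapd2 (chr6:125191587-125191836, minus strand): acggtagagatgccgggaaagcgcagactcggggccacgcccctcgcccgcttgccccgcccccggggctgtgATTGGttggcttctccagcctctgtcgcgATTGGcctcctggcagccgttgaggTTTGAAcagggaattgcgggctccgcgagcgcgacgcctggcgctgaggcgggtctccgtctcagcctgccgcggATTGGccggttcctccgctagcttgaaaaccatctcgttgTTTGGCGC
CCAAT stood in 23 of the 35 replication list promoters that the table held (65.7%) and in 30 of 39 mitosis list promoters (76.9%), against 34.3% of all 25748 autosomal promoters of that length and 35.7% of those of genes tested.
An E2F-type word stood in 7 of the replication promoters (20%) and in 1 of the mitosis promoters (2.56%), against 1.76% of all and 2.89% of those of genes tested.
Of the tested members alone it was 4 of 21 (19%) and 1 of 9 (11.1%).
TTTGAA stood in 17.1% of the replication and 38.5% of the mitosis promoters, against 15.9% of all and 9.31% of those of genes tested.
Of the tested members alone, TTTGAA stood in 14.3% and 33.3%.
A match describes the letters of this window only.

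Neural progenitor genes were mostly higher at E15 as well. Of 30 tested 19 were higher at E15, 1 was higher in the preoptic area and 10 did not pass, with a median log2 difference of 0.9. Nes (chr3:87775000-87784373, plus strand), the intermediate filament of radial glia, had 150.0 and 116 in the embryonic pools and 11, 15.7, 15.7 and 17.6 in the preoptic pools (log2 difference 3.13, SE 0.2, adjusted p = 6.3e-07). Ccnd2, a cyclin of cortical progenitors, had 233 and 293 in the embryonic pools and 20.4, 13.8, 20.02 and 19.2 in the preoptic pools (log2 difference 3.83, SE 0.18, adjusted p = 1.2e-07). Eomes, the transcription factor of intermediate progenitors, had 22.8 and 16.4 in the embryonic pools and 1.22, 3.99, 2.41 and 2.1 in the preoptic pools (log2 difference 3.01, SE 0.33, adjusted p = 2.4e-05). In these 3 genes the lower embryonic pool was at least 4-fold above the highest preoptic pool. Fabp7, a lipid-binding protein of radial glia, had 4.67 and 119 in the embryonic pools and 2.74, 5.05, 3.16 and 5.88 in the preoptic pools, so the F1i embryonic pool lay within the preoptic range; its difference of 3.17 (SE 0.6) became 4.41 and 0.63 without the F1i or the F1r embryonic pool, and the call was lost in the latter. Sox1 was the exception in direction, with 12.8 and 5.93 in the embryonic pools and 22.2, 11.7, 20.5 and 23.5 in the preoptic pools (log2 difference -1.13, SE 0.31, adjusted p = 0.0089) and overlapping pools; without the F1r embryonic pool the value was -0.72 and the call was lost. Pax6 and Neurog2, which drive neurogenesis, were listed in the embryonic table only, at 13 and 24.3 RPM.

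Genes of migrating and differentiating neurons were mostly higher at E15, 27 of 41, with 4 higher in the preoptic area and a median log2 difference of 1.35. The tested members added up to 23448 and 20399 RPM in the embryonic pools and 5630 to 5967 in the preoptic pools. Tubb2b (chr13:34218877-34222223, minus strand), a beta tubulin of growing axons, had 4211 and 2367 in the embryonic pools and 121, 109, 145 and 120.3 in the preoptic pools (log2 difference 4.68, SE 0.16, adjusted p = 2.3e-08). Sox11 and Sox4 are related transcription factors of newborn neurons. Sox11 had 689 and 383 in the embryonic pools and 20.7, 23.4, 29.5 and 29.7 in the preoptic pools (log2 difference 4.31, SE 0.21, adjusted p = 1.7e-07). Sox4 had 294 and 134 in the embryonic pools and 8.22, 9.03, 10.2 and 8.95 in the preoptic pools (log2 difference 4.45, SE 0.22, adjusted p = 1.8e-07). All 3 lay more than 10-fold above the highest preoptic pool in both crosses, with the F1i embryonic pool the higher of the 2. In the other direction, Rnd2, a small GTPase, had 19.1 and 15.4 in the embryonic pools and 146, 109.5, 149 and 144 in the preoptic pools (log2 difference -3.0, SE 0.18, adjusted p = 5.1e-07). The guidance ligand gene Slit1 (log2 difference -1.0, SE 0.14) and the axon initial segment gene Nfasc (log2 difference -1.01, SE 0.15) were also higher in the preoptic area. Dpysl2, a collapsin response mediator, differed by only -0.33 (SE 0.12), lost its call without the F1r embryonic pool (-0.3) and gave 2.20 on its deepest SNP alone. Neurod6, a factor of cortical excitatory neurons, was listed in the embryonic table only, at 225 RPM.

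Fetal growth, chromatin and RNA-binding genes were fewer in the test, 11 in all, of which 6 were higher at E15 and 2 higher in the preoptic area. Mycn, the proto-oncogene of neural progenitors, had 39.97 and 64.2 in the embryonic pools and 1.22, 3.45, 1.81 and 1.26 in the preoptic pools (log2 difference 4.79, SE 0.29, adjusted p = 5.0e-07). Ezh2, the methyltransferase of Polycomb repressive complex 2, had 73.3 and 32.3 in the embryonic pools and 2.13, 1.59, 2.26 and 3.36 in the preoptic pools (log2 difference 4.32, SE 0.32, adjusted p = 1.7e-06). Hmgb2, a chromatin protein of dividing cells, had 31.3 and 46.5 in the embryonic pools and 5.17, 3.99, 3.61 and 6.16 in the preoptic pools, and Hmga2 had 19.8 and 22.9 in the embryonic pools and 6.09, 9.3, 3.16 and 6.02 in the preoptic pools. Higher in the preoptic area were Hmga1 (-1.07) and Sall2 (-0.47); Hmga1 and Sall2 lost their calls in at least 1 alternative. Hmga1, a relative of Hmga2, was higher in the preoptic area, with 111 and 75.1 in the embryonic pools and 209, 186, 195 and 179 in the preoptic pools (log2 difference -1.07, SE 0.15, adjusted p = 1.2e-04). 12 symbols of this list were listed in the embryonic table only, among them Myc at 30.1, Igf2bp3 at 25.7, Dnmt3b at 9.07 and Igf2bp1 at 8.46 RPM.

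**Figure D3:**
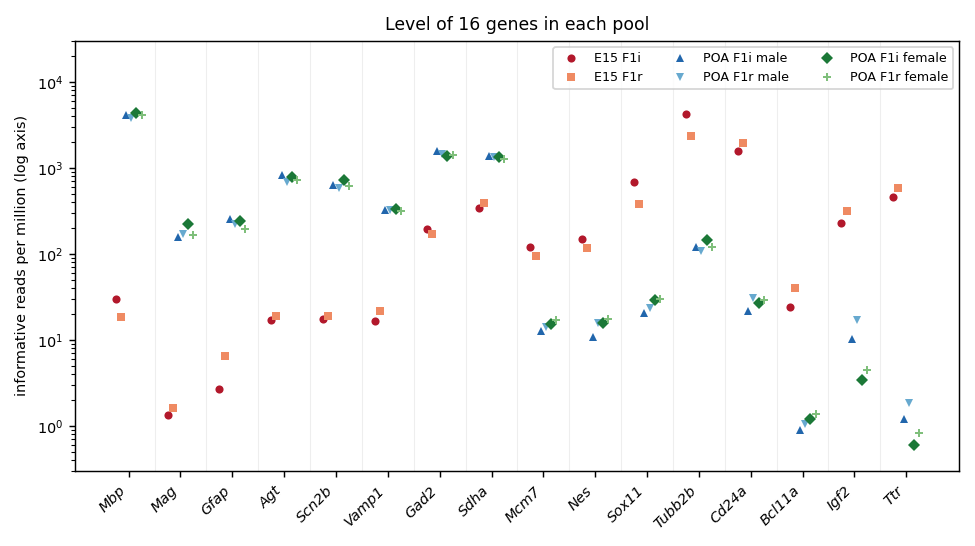
RPM (log axis) of 16 genes in each of the 6 pools; every symbol is 1 pool, so there is no error bar. From Mbp to Sdha the 2 embryonic (E15) pools lie below the 4 preoptic (POA) pools, and from Mcm7 to Ttr above them, with no overlap in any of the 16 genes.

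Tested genes of the midbrain, hindbrain and cerebellar patterning list were almost all on the embryonic side. The embryonic pools were whole brain, and the parts of region and age cannot be told apart. Of the 10 tested 9 were higher at E15 and none higher in the preoptic area in edgeR, DESeq2 or limma-voom, also at an unadjusted p under 0.05 in edgeR, with a median log2 difference of 2.97; without the deepest SNP of each gene 1 of 9 was higher in the preoptic area. Lhx9, a LIM homeodomain factor, had 41.9 and 33 in the embryonic pools and 2.13, 2.92, 4.52 and 2.52 in the preoptic pools (log2 difference 3.58, SE 0.25, adjusted p = 1.2e-06). Mab21l1 had 92.3 and 36.9 in the embryonic pools and 3.35, 2.39, 2.26 and 2.8 in the preoptic pools (log2 difference 4.48, SE 0.28, adjusted p = 6.5e-07). Meis2, a homeodomain factor of forebrain and midbrain, had 411 and 177 in the embryonic pools and 12.5, 12, 10.1 and 15.5 in the preoptic pools (log2 difference 4.46, SE 0.28, adjusted p = 6.7e-07), and Irx1 had 18.7 and 5.03 in the embryonic pools and 0.609, 0.797, 0.903 and 1.12 in the preoptic pools. In these 4 genes the F1i embryonic pool was the higher of the 2 crosses. The difference without the F1i or the F1r pool was 3.65 and 5.22 for Meis2 and 2.3 and 4.5 for Irx1. The joint fit with prefrontal cortex, described below, held 3 members of the list. Between the adult regions 1 was higher in the preoptic area and 1, Meis2, higher in the cortex, against 23.6% and 25.8% of all genes in that fit. Meis2 had means of 276, 11.8 and 113 RPM at E15, in the preoptic area and in the cortex. Of the 36 symbols listed in the embryonic table only, those with most reads were Tfap2b at 82.6, Irx2 at 65.1, Barhl1 at 31.4 and En2 at 23.5 RPM; Hox genes among them reached 16.6 (Hoxd3).

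Cortical and striatal neuron genes divided almost evenly, 11 of 24 higher at E15 and 10 higher in the preoptic area, with a median of 0.16. Bcl11a, a factor of cortical and striatal neurons, had 24.5 and 40.3 in the embryonic pools and 0.913, 1.06, 1.2 and 1.4 in the preoptic pools (log2 difference 4.74, SE 0.26, adjusted p = 3.0e-07). Mef2c had 75 and 47.1 in the embryonic pools and 11, 13.3, 7.38 and 7.56 in the preoptic pools (log2 difference 2.66, SE 0.27, adjusted p = 1.2e-05), and Lmo3 225 and 303 in the embryonic pools and 74, 76.5, 63.1 and 74.2 in the preoptic pools. In contrast, Ppp1r1b, the dopamine-regulated phosphoprotein of striatal projection neurons, had 24.1 and 22.7 in the embryonic pools and 347, 345, 412 and 414 in the preoptic pools (log2 difference -4.02, SE 0.17, adjusted p = 7.9e-08). Adora2a, the adenosine receptor of the striatum, had 14.5 and 10.4 in the embryonic pools and 83.4, 72.8, 93.6 and 97.1 in the preoptic pools (log2 difference -2.81, SE 0.21, adjusted p = 1.7e-06). Pvalb, the calcium buffer of fast-spiking interneurons, had 0.681 and 0.449 in the embryonic pools and 15.5, 14.9, 15.5 and 15.5 in the preoptic pools. The striatal genes Ppp1r1b and Adora2a were thus detected in all 4 preoptic pools, and whether striatal tissue was part of the dissection was not tested.

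Glial genes showed the opposite direction. Of 30 tested myelin and oligodendrocyte genes 24 were higher in the preoptic area and 6 did not pass the test; none was higher at E15 in edgeR, DESeq2 or limma-voom, also at an unadjusted p under 0.05 in edgeR, and the median log2 difference was -2.7. Mag, the adhesion molecule between myelin and axon, had 1.36 and 1.62 in the embryonic pools and 156, 168, 221 and 168 in the preoptic pools (log2 difference -6.88, SE 0.27, adjusted p = 4.6e-08). Mal, a proteolipid of compact myelin, had 1.36 and 0.988 in the embryonic pools and 96.5, 103, 109 and 89.4 in the preoptic pools (log2 difference -6.39, SE 0.25, adjusted p = 4.6e-08). In both genes the lowest preoptic pool was over 60-fold above the higher embryonic pool. Members that did not pass included Olig2, at -0.37 (SE 0.15), and Pdgfra, at -0.27 (SE 0.17), which mark the oligodendrocyte lineage before myelination and were named after their values were seen. Mobp and Opalin, both myelin genes, were listed in the preoptic table only, at 1919 and 105 RPM of that table. Summed over the tested list, the level was 1093 and 1152 RPM in the embryonic pools and 8897 to 9670 in the preoptic pools.

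Among 32 tested astrocyte genes 29 were higher in the preoptic area and 2 higher at E15, with a median of -2.47. Gfap (chr11:102748650-102762226, minus strand), the astrocyte intermediate filament, had 2.72 and 6.47 in the embryonic pools and 253, 222, 244 and 194 in the preoptic pools (log2 difference -5.62, SE 0.32, adjusted p = 3.3e-07). Agt, which encodes angiotensinogen, had 17 and 18.9 in the embryonic pools and 830.2, 691, 792 and 719.8 in the preoptic pools (log2 difference -5.39, SE 0.17, adjusted p = 1.8e-08). The neurotensin receptor gene Ntsr2 had 4.47 and 3.15 in the embryonic pools and 295, 291, 285 and 275 in the preoptic pools, and Clu, which encodes clusterin, had 26.4 and 33.4 in the embryonic pools and 762, 734, 725 and 683 in the preoptic pools. In each of the 4 the lowest preoptic pool was at least 20-fold above the higher embryonic pool; without the F1i or the F1r embryonic pool Gfap differed by -5.0 and -6.5. The exceptions were higher at E15. Gldc, the glycine decarboxylase gene, had 29.6 and 29.3 in the embryonic pools and 14.3, 14.9, 16.4 and 14.1 in the preoptic pools (log2 difference 0.98, SE 0.18, adjusted p = 8.3e-04), and Sox9, which progenitors also express, had 116 and 69.2 in the embryonic pools and 74, 56.1, 59.5 and 69.7 in the preoptic pools with overlapping pools and an edgeR adjusted p of 0.046, a call lost in 13 alternatives (0.13 without the F1i embryonic pool).

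Of 18 tested microglia genes 17 were higher in the preoptic area and none was higher at E15 in edgeR, DESeq2 or limma-voom, also at an unadjusted p under 0.05 in edgeR (median -1.4). Ctss, a lysosomal protease, had 5.64 and 6.56 in the embryonic pools and 36.8, 30.02, 29.8 and 27.6 in the preoptic pools (log2 difference -2.33, SE 0.23, adjusted p = 1.0e-05). Selplg had 0.778 and 0.809 in the embryonic pools and 13.1, 12, 12.6 and 10.5 in the preoptic pools and Tmem119, a marker of resident microglia, 5.06 and 3.15 in the embryonic pools and 14.3, 17.8, 21.7 and 19.6 in the preoptic pools. The chemokine receptor gene Cx3cr1, a defining marker, had 19.7 and 34.5 in the embryonic pools and 50.5, 48.4, 67 and 59.6 in the preoptic pools. Vessel genes divided: of 26 tested 9 were higher at E15 and 6 higher in the preoptic area (median 0.41). Cdh5, the endothelial cadherin, had 192 and 137 in the embryonic pools and 32.9, 26, 31.5 and 29.4 in the preoptic pools (log2 difference 2.44, SE 0.15, adjusted p = 4.6e-07), and the growth factor receptor gene Kdr 22.1 and 15.4 in the embryonic pools and 5.78, 3.19, 2.56 and 4.62 in the preoptic pools. Ly6c1 had 1.65 and 3.15 in the embryonic pools and 51.4, 42.5, 41.2 and 34.4 in the preoptic pools (log2 difference -4.11, SE 0.31, adjusted p = 2.1e-06). Its difference was -3.59 and -4.78 without the F1i or the F1r embryonic pool. The glucose transporter gene Slc2a1 had 40.3 and 32.5 in the embryonic pools and 99.8, 93.8, 80.2 and 82.3 in the preoptic pools. Cldn5, a tight junction gene, had 9.63 and 12 in the embryonic pools and 9.44, 6.64, 12.9 and 15.3 in the preoptic pools, a log2 difference of -0.08 (SE 0.31) that did not pass the test in edgeR (adjusted p = 0.84). Cx3cr1 and Cldn5 are given as defining markers and not by the rule for named genes.

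Synaptic genes were mostly higher in the preoptic area. Of 43 tested members of the vesicle and exocytosis list 30 were higher there and 5 higher at E15, with a median of -0.89. Vamp1, a vesicle SNARE, had 16.5 and 21.8 in the embryonic pools and 321, 326, 335 and 312 in the preoptic pools (log2 difference -4.08, SE 0.17, adjusted p = 7.5e-08). Cplx1, which clamps the SNARE complex, had 59.9 and 61.6 in the embryonic pools and 687, 586, 639 and 669.7 in the preoptic pools (log2 difference -3.41, SE 0.15, adjusted p = 8.0e-08). The vesicular GABA transporter gene Slc32a1 had 73 and 24 in the embryonic pools and 304, 249, 324 and 352 in the preoptic pools, a difference of -3.65 and -2.11 without the F1i or the F1r embryonic pool. The vesicular glutamate transporters went the other way: Slc17a6 had 142 and 204 in the embryonic pools and 76.7, 86.6, 50.7 and 55 in the preoptic pools (log2 difference 1.36, SE 0.21, adjusted p = 2.5e-04), and Slc17a7 15.9 and 9.7 in the embryonic pools and 1.52, 1.06, 1.66 and 2.1 in the preoptic pools (log2 difference 2.9, SE 0.32, adjusted p = 2.2e-05). The 5 higher at E15 were Slc17a7 (2.9), Slc17a6 (1.36), Pclo (0.69), Doc2a (0.52) and Stx1a (0.51). Pclo, Doc2a and Stx1a lost their calls in at least 1 alternative. Doc2a, at an edgeR adjusted p of 0.049, lost its call in many, among them DESeq2, limma-voom and the fit without the filter on low counts. Without its deepest SNP Doc2a was -0.22. Stx1a lost its call in several, among them limma-voom, and was -0.016 on its deepest SNP alone. Pclo, a scaffold of the active zone, was also higher at E15 (log2 difference 0.69, SE 0.12), but its deepest SNP alone gave 0.20 without a call.

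In the glutamate receptor and postsynaptic list, 27 of 48 were higher in the preoptic area and 8 higher at E15 (median -0.61). On the deepest SNP of each gene alone the E15 count was 15 of 47. Camk2a, the alpha subunit of the postsynaptic calcium/calmodulin kinase, had 97 and 82.3 in the embryonic pools and 816, 848, 973 and 886 in the preoptic pools (log2 difference -3.3, SE 0.15, adjusted p = 1.1e-07). Grin1, the obligatory subunit of NMDA receptors, had 83.6 and 72.1 in the embryonic pools and 439.8, 427, 488 and 465 in the preoptic pools (log2 difference -2.55, SE 0.14, adjusted p = 3.2e-07). Baiap2, a postsynaptic adaptor, had 13.1 and 4.94 in the embryonic pools and 69.4, 57.9, 79.2 and 77.4 in the preoptic pools. Its difference of -3.06 (SE 0.3) was -3.79 and -2.51 without the F1i or the F1r embryonic pool. Grin2b, the NMDA receptor subunit that prevails early, had 69.1 and 48.8 in the embryonic pools and 16.4, 11.7, 25.3 and 12.9 in the preoptic pools (log2 difference 1.84, SE 0.2, adjusted p = 2.0e-05). Gria2, the AMPA receptor subunit that limits calcium entry, had 222 and 322 in the embryonic pools and 94.7, 111, 76.6 and 90.2 in the preoptic pools (log2 difference 1.54, SE 0.15, adjusted p = 1.0e-05). Homer1, a postsynaptic scaffold, had 30.7 and 41.3 in the embryonic pools and 11.6, 16.2, 11.7 and 14.7 in the preoptic pools. Members of 1 receptor complex thus stood on both sides, Grin1 higher in the preoptic area and Grin2b at E15.

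Of the GABA and glycine list 17 of 24 were higher in the preoptic area and 4 higher at E15 (median -1.22). Gad2 (chr2:22477725-22549394, plus strand), a GABA-synthesising enzyme, had 195 and 169 in the embryonic pools and 1568, 1462, 1375 and 1420 in the preoptic pools (log2 difference -3.0, SE 0.14, adjusted p = 1.1e-07). Gabra5, an alpha subunit of GABA-A receptors, had 133 and 134 in the embryonic pools and 53.6, 61.6, 54.8 and 44.8 in the preoptic pools (log2 difference 1.32, SE 0.16, adjusted p = 4.1e-05), and the related Gabra2 70.6 and 88.6 in the embryonic pools and 47.2, 55.8, 40.6 and 43.9 in the preoptic pools. Both subunit genes were thus higher in each embryonic pool than in any preoptic pool, against the majority of the list; Gabra2 was not called on its deepest SNP alone. Gphn, the scaffold gephyrin, differed by 0.93 (SE 0.18), a difference that was lost without its deepest SNP.

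Ion channel genes were called higher in the preoptic area in 38 of 65 cases and higher at E15 in 9 (median -0.83). On the deepest SNP of each gene alone 15 were higher at E15. Scn2b, an auxiliary subunit of sodium channels, had 17.6 and 19.2 in the embryonic pools and 625, 584, 717 and 619 in the preoptic pools (log2 difference -5.11, SE 0.17, adjusted p = 2.4e-08). Hcn2, a pacemaker channel, had 14.1 and 6.38 in the embryonic pools and 228, 189, 244 and 247 in the preoptic pools, while its relative Hcn4 had 69.1 and 45.1 in the embryonic pools and 17.4, 16.5, 15.2 and 15.5 in the preoptic pools. The 2 pacemaker channel genes were separated between the tissues in opposite directions, by -4.52 and 1.8 on the log2 scale. Kcnj10, the inward rectifier of glia, had 3.7 and 5.39 in the embryonic pools and 118, 102, 96.8 and 99.2 in the preoptic pools. Cacnb3, a calcium channel beta subunit, had 545 and 316 in the embryonic pools and 169.8, 166, 195 and 173 in the preoptic pools (log2 difference 1.25, SE 0.16, adjusted p = 6.5e-05).

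Pairs of genes whose balance is thought to shift as the brain matures were compared by the log2 ratio of their reads within each pool. That ratio does not depend on the scaling between pools, and it can change while both genes move the same way. For the NMDA receptor subunits Grin2b over Grin2a the ratio was 3.98 and 3.02 in the embryonic pools and 0.95, 0.29, 1.56 and 0.8 in the preoptic pools, a mean change of 2.6. In this pair every embryonic pool lay above every preoptic pool. The chloride importer Slc12a2 over the exporter Slc12a5 gave -1.51 and 0.03 in the embryonic pools and -3.08, -2.86, -3.46 and -3.34 in the preoptic pools. There Slc12a5 carried the change, with 151 and 85.3 in the embryonic pools and 706, 654, 787 and 781 in the preoptic pools, whereas Slc12a2 alone did not pass the test (log2 difference -0.23, SE 0.18, adjusted p = 0.29), with values of 0.07 and -0.54 without the F1i or the F1r embryonic pool, the second of which passed. The ratio of the enolases Eno1 over Eno2, the second being the neuronal form, was 1.45 and 2.36 in the embryonic pools and -0.87, -0.59, -1.66 and -1.28 in the preoptic pools. Scn3a over Scn1a, Mtap1b over Mtap1a and Camk2b over Camk2a changed by 2.79, 3.44 and 1.94, each without overlap. Eno1 itself was higher in the preoptic area (log2 difference -1.13, SE 0.28), with pools that overlapped, and so was Camk2b (-1.36, SE 0.14). In the enolase and kinase pairs both genes were thus higher in the preoptic area, Eno2 and Camk2a by more (-4.11 and -3.3). The largest changes were those of the intermediate filaments Nes over Gfap (8.92) and of the beta tubulins Tubb2b over Tubb4 (6.63).

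Some pairs did not follow that pattern. The BAF chromatin complex subunits Actl6a, of progenitors, and Actl6b, of neurons, kept a similar ratio (0.7 and 0.48 in the embryonic pools and 0.24, 0.97, 0.72 and 0.47 in the preoptic pools). Both were higher at E15: Actl6b had 31 and 50.1 in the embryonic pools and 17, 14.1, 13.2 and 16.1 in the preoptic pools and Actl6a 50.6 and 69.99 in the embryonic pools and 20.1, 27.6, 21.8 and 22.2 in the preoptic pools. Their ratios overlapped between the tissues. The splicing regulator pair Ptbp1 over Ptbp2 changed by -1.56, towards Ptbp2 at E15, with Ptbp2 at 122 and 178 in the embryonic pools and 39.3, 32.1, 34.3 and 32.5 in the preoptic pools. Ptbp1 itself did not pass the test (log2 difference 0.48, SE 0.24, adjusted p = 0.1). The vesicular glutamate transporters Slc17a6 over Slc17a7 changed by -1.64, with few Slc17a7 reads in the preoptic pools.

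**Figure D4:**
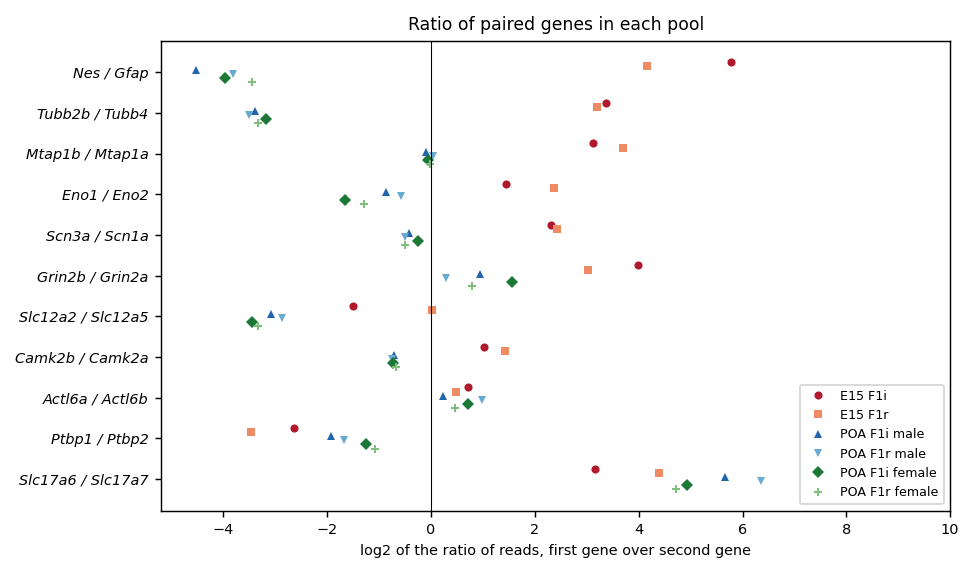
Log2 ratio of the reads of 2 paired genes within each of the 6 pools; every symbol is 1 pool. The embryonic (E15) pools lie to the right of the preoptic (POA) pools in 8 pairs, to the left in Ptbp1 over Ptbp2 and Slc17a6 over Slc17a7, and among them in Actl6a over Actl6b.

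Neuropeptides, hormone receptors and secretory granule genes of preoptic and hypothalamic neurons were mostly higher in the preoptic area, 35 of 43 tested, against 4 higher at E15, with a median of -1.82. The list was written to hold genes known from this region, so its direction is not independent of that choice. The joint fit with prefrontal cortex, described below, held 28 members. Of these 19 were lower and 2 higher at E15 than in the cortex, so the direction was largely shared by that region. Over all genes of that fit, 29.4% were lower and 31.3% higher at E15 than in the cortex. Between the adult regions 12 were higher in the preoptic area and 7 higher in the cortex, against 23.6% and 25.8% of all genes. Gal, the neuropeptide galanin, had 0.973 and 2.88 in the embryonic pools and 43.8, 56.6, 17.2 and 19.7 in the preoptic pools (log2 difference -4.14, SE 0.59, adjusted p = 1.4e-04). Its difference was -3.65 and -4.86 without the F1i or the F1r embryonic pool. For Gal both male pools lay above both female pools, as they did for the prolactin receptor gene Prlr, with 0.292 and 0.629 in the embryonic pools and 7.61, 8.24, 2.86 and 2.8 in the preoptic pools. These separations by sex were noticed in the values and not tested. With 2 pools of each sex they often arise by chance, and their share over all genes was not counted. Cartpt, a peptide of feeding circuits, had 1.85 and 0.359 in the embryonic pools and 29.2, 23.4, 36.6 and 42.1 in the preoptic pools (log2 difference -4.95, SE 0.47, adjusted p = 8.8e-06; -6.47 and -4.16 without the F1i or the F1r embryonic pool). Tac2, which encodes neurokinin B, had 3.02 and 2.52 in the embryonic pools and 52.4, 58.2, 44.4 and 34.7 in the preoptic pools (log2 difference -4.08, SE 0.29, adjusted p = 1.5e-06). Ngb, the neuronal globin, had 0.389 and 0.180 in the embryonic pools and 17.4, 16.2, 12.8 and 10.6 in the preoptic pools on a single SNP. Npy, neuropeptide Y, went the other way, with 95.6 and 71.4 in the embryonic pools and 9.74, 8.5, 16.3 and 10.5 in the preoptic pools (log2 difference 2.86, SE 0.2, adjusted p = 1.3e-06), as did the patterning factors Fezf1 (log2 difference 1.57, SE 0.33) and Lhx1 (log2 difference 2.36, SE 0.46) on few reads. Sst, somatostatin, differed by 0.6 (SE 0.15) and lost its call on its deepest SNP alone, on SNPs at least 36 bases apart and on the C57BL/6J reads.

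Markers of blood, meninges and choroid plexus moved with the tissue, and their part in the other results was not tested. The 4 tested erythroid genes added up to 1555 and 1975 RPM in the embryonic pools and 269 to 282 in the preoptic pools, more than any other from the globin gene Hbb-b1, with 1405 and 1897 in the embryonic pools and 168, 161, 142 and 144 in the preoptic pools (log2 difference 3.42, SE 0.14, adjusted p = 6.4e-08). Higher at E15 were Hbb-b1 (3.42) and Fech (1.6). Fech was 0.84 and 2.21 without the F1i or the F1r embryonic pool. Higher in the preoptic area were Cpox (-1.67) and Tfrc (-0.92); Tfrc lost its call in at least 1 alternative. Tfrc was -0.44 and -1.54 without the F1i or the F1r embryonic pool. Of 16 meningeal and fibroblast genes 12 were higher at E15 and none was higher in the preoptic area in edgeR, DESeq2 or limma-voom (1 at an unadjusted p under 0.05 in edgeR, and 1 on the deepest SNP of each gene alone; median 1.66), with a sum of 798 and 822 RPM in the embryonic pools and 186 to 239 in the preoptic pools. Among them Col1a1 had 47.7 and 44.7 in the embryonic pools and 6.7, 4.78, 6.17 and 4.48 in the preoptic pools and Fn1, fibronectin, 376 and 406 in the embryonic pools and 61.2, 55, 67.6 and 57.9 in the preoptic pools (log2 difference 2.7, SE 0.13, adjusted p = 1.6e-07). The 12 choroid plexus and ependymal genes summed to 692 and 838 RPM in the embryonic pools and 339.6 to 375 in the preoptic pools, 5 being higher at E15 and 6 higher in the preoptic area. Without Ttr the other 11 summed to 234 and 259 in the embryonic pools and to more, 339 to 374, in the preoptic pools. Ttr, the thyroid hormone carrier of the choroid plexus, had 458 and 579 in the embryonic pools and 1.22, 1.86, 0.602 and 0.839 in the preoptic pools, a log2 difference of 8.98 (SE 0.22) that was the largest of all genes and rests on 2 SNPs. Enpp2, by contrast, had 54.4 and 98.4 in the embryonic pools and 172, 185, 189 and 178 in the preoptic pools. Of the defining markers Col3a1 and Kl had no shared SNP, and Folr1 was listed in the embryonic table only, at 14.8 RPM.

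Immediate early genes, which respond to neuronal activity and to handling within minutes, were mixed: 6 of 18 were higher in the preoptic area and 4 higher at E15 (median -0.44). Egr1 had 15.6 and 6.74 in the embryonic pools and 43.5, 46, 50.1 and 49.4 in the preoptic pools (log2 difference -2.15, SE 0.28, adjusted p = 7.2e-05). Egr1 differed by -2.82 and -1.6 without the F1i or the F1r embryonic pool. Arc had 4.86 and 2.97 in the embryonic pools and 11.9, 13.6, 20.8 and 19.5 in the preoptic pools. Dusp1, a phosphatase of the same response, had 57.4 and 28.5 in the embryonic pools and 18, 19.1, 22.1 and 17.2 in the preoptic pools (log2 difference 1.1, SE 0.22, adjusted p = 0.0013). On the log2 scale the 4 higher at E15 were Ier2 (1.79), Homer1 (1.41), Dusp1 (1.1) and Dusp6 (0.93); Ier2 and Dusp6 lost their calls in at least 1 alternative. Without the F1i embryonic pool Ier2, on 1 SNP and with pools that overlapped, was 0.42 and Dusp6 0.29. Ier2 was 2.75 without the F1r embryonic pool and 1.05 without the F1i female preoptic pool. Of 11 antigen presentation genes 7 were higher in the preoptic area and 1 higher at E15, namely Psme2 (0.94); Psme2 lost its call in at least 1 alternative (median -1.12). Tapbp, a peptide-loading factor, had 15.9 and 12 in the embryonic pools and 39.6, 36.1, 44.6 and 42.4 in the preoptic pools. The antigen presentation count fell to 3 higher in the preoptic area in limma-voom and in the fit without the deepest SNP.

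Genes of protein synthesis and of respiration moved in opposite directions. Of 50 tested cytosolic ribosomal protein genes 25 were higher at E15, 2 higher in the preoptic area and 23 not called (median 0.62), with a sum of 19382 and 16471 RPM in the embryonic pools and 9770 to 10262 in the preoptic pools. Rpl4 had 1339 and 1348 in the embryonic pools and 274, 268, 248 and 253 in the preoptic pools (log2 difference 2.37, SE 0.11, adjusted p = 1.3e-07). Rpl7 had 643 and 881 in the embryonic pools and 156, 157, 135 and 143 in the preoptic pools (log2 difference 2.35, SE 0.14, adjusted p = 3.8e-07). Higher in the preoptic area were Rpl34 (-1.39) and Rpl3 (-0.67); Rpl34 and Rpl3 lost their calls in at least 1 alternative. Rps20, on a single SNP, had 1910 and 389.8 in the embryonic pools and 149, 148, 98.6 and 124 in the preoptic pools, a difference of 1.53 and 3.97 without the F1i or the F1r embryonic pool. Many ribosomal protein genes have near-identical pseudogenes that short reads can be split among, so single values are uncertain; Rpl34, called higher in the preoptic area, changed sign when all SNPs of each table were used and lost its call without the F1r embryonic pool (-0.74). Of 52 tested genes of mitochondrial respiration 32 were higher in the preoptic area and 5 higher at E15 (median -0.81). Sdha, a subunit of succinate dehydrogenase, had 344 and 395 in the embryonic pools and 1389, 1331, 1321 and 1267 in the preoptic pools (log2 difference -1.85, SE 0.13, adjusted p = 1.2e-06). Atp5b, the catalytic beta subunit of ATP synthase, had 170.1 and 134 in the embryonic pools and 652, 599.9, 795 and 652 in the preoptic pools (log2 difference -2.16, SE 0.14, adjusted p = 9.0e-07). Ndufa13, a subunit of complex I, had 62.2 and 63.9 in the embryonic pools and 244, 235, 241 and 229 in the preoptic pools. The 5 higher at E15 were Ndufa8 (1.64), Cox6b2 (1.21), Atp5c1 (0.73), Atp5f1 (0.42) and Cycs (0.42). Cox6b2, Atp5c1, Atp5f1 and Cycs lost their calls in at least 1 alternative. Without its deepest SNP Atp5f1 was called higher in the preoptic area (-0.70), and only 2 of its 6 SNPs had the direction of the gene. Cycs was -0.27 on its deepest SNP alone. Ndufa8, a complex I subunit, was higher at E15 on a single SNP, with 291 and 140.3 in the embryonic pools and 80.7, 52.6, 71.3 and 60.7 in the preoptic pools.

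Subunits of the BAF chromatin remodeller were higher at E15 in 13 of 18 cases and higher in the preoptic area in 2 (median 0.92). Smarce1 had 360.2 and 333 in the embryonic pools and 118, 113, 90.00 and 93.9 in the preoptic pools (log2 difference 1.75, SE 0.15, adjusted p = 3.7e-06), and Smarcc1, a core subunit, 155 and 206 in the embryonic pools and 65.1, 77.3, 61 and 63.1 in the preoptic pools. Higher in the preoptic area were Smarcd3 (-0.99) and Smarca2 (-0.51); Smarcd3 and Smarca2 lost their calls in at least 1 alternative. Smarcd3 was -0.48 and -1.62 without the F1i or the F1r embryonic pool. The ATPase gene Smarca2 was higher in the preoptic area, with 288 and 262 in the embryonic pools and 435, 369, 375 and 386 in the preoptic pools (log2 difference -0.51, SE 0.13, adjusted p = 0.0049). Of 33 splicing regulators 14 were higher at E15 and 6 higher in the preoptic area (median 0.48). Sfrs3, now named Srsf3, had 299 and 339.5 in the embryonic pools and 81.6, 68.8, 59.5 and 59.5 in the preoptic pools (log2 difference 2.25, SE 0.16, adjusted p = 1.2e-06). Mbnl2, a muscleblind protein of adult splicing, had 17.5 and 15 in the embryonic pools and 61.5, 56.6, 58.6 and 59.9 in the preoptic pools (log2 difference -1.86, SE 0.17, adjusted p = 7.3e-06). Hnrnpl had 1099 and 213 in the embryonic pools and 76.4, 91.4, 70.7 and 76.3 in the preoptic pools, a difference of 1.35 and 3.91 without the F1i or the F1r embryonic pool. Of its 2 SNPs, 1 held 9572 of the 11304 F1i reads and 1405 of the 2369 F1r reads. Of 22 genes of cholesterol metabolism 12 were higher at E15 and 4 higher in the preoptic area (median 0.41). Cyp51, a sterol demethylase of the synthesis pathway, had 494 and 815 in the embryonic pools and 231, 261, 187 and 227 in the preoptic pools (log2 difference 1.5, SE 0.15, adjusted p = 1.2e-05), and Fdps, farnesyl diphosphate synthase, 128 and 109 in the embryonic pools and 27.4, 21.8, 23.3 and 21.8 in the preoptic pools. Higher in the preoptic area were, among others, Cyp46a1 (-3.26), Mvd (-1.8) and Insig1 (-1.1); Mvd lost its call in at least 1 alternative. The first of these is Cyp46a1, which turns cholesterol into the form that leaves the brain, with 32.1 and 23.8 in the embryonic pools and 239, 269.9, 275 and 286 in the preoptic pools (log2 difference -3.26, SE 0.18, adjusted p = 3.3e-07).

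Imprinted genes are transcribed mainly from the allele of 1 parent, and here their alleles were added together. Of 43 tested 22 were higher in the preoptic area and 10 higher at E15 (median -0.57). This direction was not shared by the cortex. In the joint fit with prefrontal cortex, described below, 17 of 37 were higher and 12 lower at E15 than in the cortex (median 0.27). Over all genes these shares were 31.3% and 29.4%. Between the adult regions 16 were higher in the preoptic area and 7 higher in the cortex, against 23.6% and 25.8% of all genes. Igf2 (chr7:149836673-149852721, minus strand), the fetal growth factor, had 227 and 314 in the embryonic pools and 10.4, 17.3, 3.46 and 4.48 in the preoptic pools (log2 difference 5.08, SE 0.4, adjusted p = 2.4e-06). Cdkn1c, an inhibitor of cyclin-dependent kinases, had 8.27 and 25.7 in the embryonic pools and 0.304, 0.266, 0.753 and 0.280 in the preoptic pools (log2 difference 5.15, SE 0.47, adjusted p = 7.1e-06), on 1 SNP; it was 6.45 and 3.74 without the F1i or the F1r embryonic pool and 6.12 without the F1i female preoptic pool. Mkrn3 was higher at E15 on few reads (log2 difference 3.21, SE 0.63) but lost its call without the F1i embryonic pool (1.36). In the preoptic area Rasgrf1 (chr9:89804613-89921814, plus strand), an exchange factor for Ras, had 535, 639.7, 533 and 588 RPM against 14.1 and 13.3 in the embryo (log2 difference -5.38, SE 0.17, adjusted p = 1.8e-08). Impact, a regulator of translation, had 39.97 and 38.1 in the embryonic pools and 496, 515, 525 and 439 in the preoptic pools (log2 difference -3.66, SE 0.15, adjusted p = 6.9e-08). Nap1l5 had 38.1 and 19.1 in the embryonic pools and 634, 451, 548 and 468 in the preoptic pools on a single SNP. In all 3 the lowest preoptic pool was more than 10-fold above the higher embryonic pool. H19, the noncoding partner of Igf2, was listed in the embryonic table only, at 313 RPM.

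To see which differences also held against another adult region, the 4 pools of medial prefrontal cortex of the same crosses and age were fitted together with the 6 pools, on 11781 genes. The comparisons of E15 with each region share the embryonic pools, so the values are set side by side, and only the difference between the adult regions is a separate test, in which 49.3% of genes were called (23.6% higher in the preoptic area and 25.8% higher in the cortex). Levels in this fit rest on the SNPs listed in all 3 tables and are lower for some genes. Over all genes, 29.4% were lower and 31.3% higher at E15 than in the cortex. Of 29 myelin genes in this fit, 21 were lower and 3 higher at E15 than in the cortex, and 21 were higher in the preoptic area than in the cortex. For Mbp the log2 difference between the regions was 1.25 (SE 0.29, adjusted p = 0.0025). Gfap was higher in the preoptic area by 1.89 (SE 0.23, adjusted p = 1.1e-05), whereas Clu differed by 0.19 (SE 0.13, adjusted p = 0.23). Agt had means of 16.5, 694 and 16.6 RPM at E15, in the preoptic area and in the cortex, with a difference between the adult regions of 5.39 (SE 0.22, adjusted p = 1.2e-10). Its level in the cortex thus lay next to that of the embryo. Microglia genes were called higher in the cortex than in the preoptic area in 12 of 18 cases. For the early genes Nes, Cd24a, Tubb2b and Sox11 the adult regions differed by 0.29 (SE 0.24, adjusted p = 0.33), 0.17 (SE 0.12, adjusted p = 0.27), 0.35 (SE 0.18, adjusted p = 0.12) and 0.29 (SE 0.19, adjusted p = 0.23), and none of the 4 passed the test.

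For a set of mostly neuronal genes the direction depended on the region, with E15 between the 2. Slc17a7 had means of 12, 1.5 and 726 at E15, in the preoptic area and in the cortex, a difference between the regions of -8.83 (SE 0.21, adjusted p = 7.9e-13). Mef2c had 57.3, 9.27 and 241, and Npy 78.5, 10.6 and 196, in the same order. Homer1 had 33.9, 12.8 and 97.1, and Gabra5 125, 50.8 and 186. These 5 genes were higher at E15 than in the preoptic area and lower at E15 than in the cortex. The reverse held for Adora2a, with 0.832, 7.95 and 0.246, and Sox1, with 8.22, 13.4 and 4.38. Immediate early genes were called higher in the cortex than in the preoptic area in 15 of 18 cases; for Arc the difference was -3.76 (SE 0.23, adjusted p = 8.1e-09). Grin2b, higher at E15 than in the preoptic area, was -2.35 (SE 0.22, adjusted p = 6.1e-07) between the adult regions, with means of 55.4, 15.7 and 80.6 in the order used above. By contrast Gad2, Slc32a1 and Vamp1 were higher in the preoptic area than in the cortex by 2.58 (SE 0.13, adjusted p = 8.3e-10), 2.65 (SE 0.27, adjusted p = 1.4e-06) and 2.46 (SE 0.14, adjusted p = 5.6e-09). Peg3, an imprinted regulator that the hypothalamus expresses, was higher by 1.94 (SE 0.16, adjusted p = 1.8e-07), and Peg10 by 3.8 (SE 0.16, adjusted p = 2.5e-10); both were named after their values were seen.

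**Figure D5:**
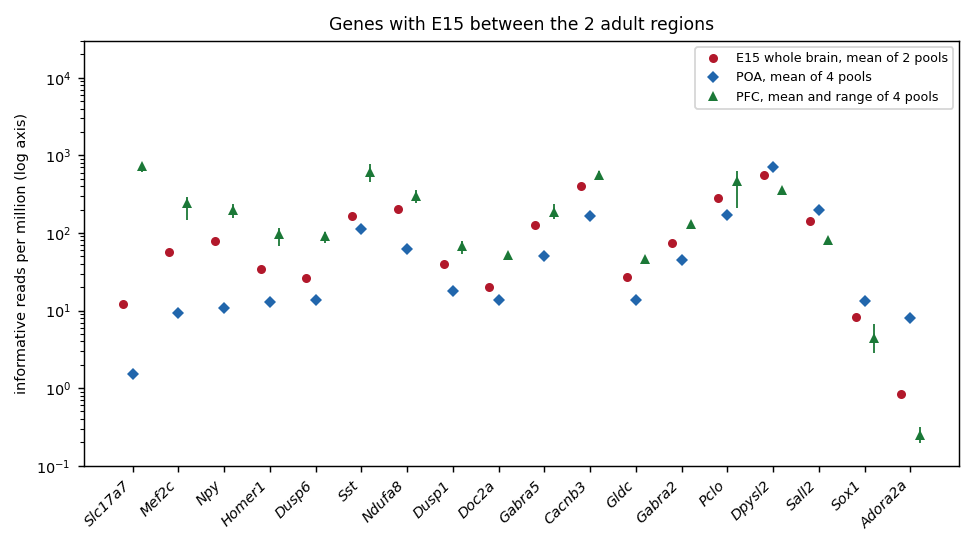
RPM (log axis) of 18 named genes whose mean at E15 lay between those of the 2 adult regions in the fit of 10 pools, with each of the 3 differences between tissues called; circles are means of 2 embryonic pools, diamonds means of 4 preoptic (POA) pools, and triangles with lines the mean and range of 4 prefrontal cortex (PFC) pools. In Slc17a7, at the left, the preoptic mean is 1.5 and the cortex mean 726, and in Adora2a, at the right, the preoptic mean is 7.95 and the cortex mean 0.246. Several of the 18, among them Doc2a, Dpysl2 and Sox1, lost the call between E15 and the preoptic area in an alternative setting.

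How evenly the SNPs of a gene carried its difference was looked at as a check for genes that rest on few of their SNPs. The direction and call of a gene come from the summed reads of these same SNPs. Some agreement is therefore built in, more so in called genes, and it is not independent support for the calls. In called genes with at least 3 SNPs, 6500 in all, a median of 86.8% of the SNPs had the direction of the whole gene, and in those of at least 2-fold the median was 100%. For genes not called it was 60%. In Mbp 11 of 13 SNPs had the direction of the gene, in Cd24a 10 of 10, in Gad2 27 of 27 and in Mtap1b 33 of 34. Genes on 1 or 2 SNPs, among them Ttr, Igf2, Cdkn1c, Bcl11a, Pvalb and Ngb, allow no such check. Of the genes named above, Nfasc, Hmga1, Lmo3, Smarca2, Camk2b and Gabra2 lost their call when only the deepest SNP of each gene was used, and Fezf1 without that SNP. The calls of Gldc and Prlr were lost on the C57BL/6J reads alone and in limma-voom, in that order. SNPs less than 36 bases apart can share reads, so the SNPs of a gene are not fully separate counts.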

How the data were processed

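Poly(A) RNA of pooled brains was sequenced as 36-base Illumina reads after random priming, per the labels' protocols; the submitters' processing notes name Novoalign and mm9, and counting filters are not given in the sources used here. The authors deposited, for each tissue, read counts per SNP and parental allele, with the technical libraries of a pool summed by them, per the file headers and labels. Repeated listings of a SNP and transcript were reduced to that with most reads. SNPs listed in both tables were kept, both alleles were added, and each symbol was represented by its transcript with most reads on autosomes 1 to 19, so 1 read can count at several nearby SNPs. Counts were tested with edgeR 4.0.16 in R 4.3.3 (filterByExpr, TMM, quasi-likelihood, cross as covariate, Benjamini-Hochberg adjustment over 12305 genes); a call is an adjusted p under 0.05. DESeq2 1.42.0 and limma 3.58.1 (voom) were alternatives. Counts were also simulated for 12213 genes, with few genes changed and the same spread in every pool. There 83% of log2 differences of 1 and 99% of those of 2 were recovered, and 6.19% of calls were false. The real embryonic pools were more uneven and far more genes differed, so these shares do not measure the power or false calls of this comparison. Replicate numbers in the labels count technical libraries. Named genes were the 10 highest and 10 lowest called genes (non-overlapping pools, at least 3 SNPs, a mean of at least 50 reads, no clone or accession names), up to 4 called members per list and direction, both genes of each pair, and the 3 members with most reads of 4 other-tissue lists; exceptions are stated, and some named genes and 1 pair are not reported here. The comparison, lists and pairs were chosen with earlier results of these data known. Symbols were matched through older names (Cdk1 as Cdc2a, Opalin as Tmem10); 581 tested symbols share all 6 counts with another symbol. Gene positions are mm9 (GENCODE M1), and promoters are from RefSeq on GRCm38.p6, whose coordinates were not compared with mm9.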

Additional observations from a re-analysis of the deposited data

Results flagged for a closer look

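A single preoptic pool stood apart from the other 3 by a larger gap than Dixon's limit allows in 6 named genes; chance sets off that rule in about 1 group in 20, and 191 genes were followed. The F1i female pool had 0.753 RPM of Cdkn1c and 8.13 of Homer3. The F1r male pool had 14.9 of Pvalb, 109 of Rnd2 and 16.2 of St8sia2, and the F1i male pool had 22.5 of Ly6a. In none of these genes did the pool that stood apart reach the embryonic pools.

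For 18 named genes the embryo differed in opposite directions from the preoptic area and the prefrontal cortex, which are compared here by the log2 difference preoptic area minus cortex, the test of that difference. Both directions share the embryonic pools. Higher in the preoptic area were Adora2a (4.91), Sox1 (1.6), Sall2 (1.32), and Dpysl2 (1). Higher in the cortex were Slc17a7 (-8.83), Mef2c (-4.74), Npy (-4.18), Homer1 (-2.93), Dusp6 (-2.76), Sst (-2.47), Ndufa8 (-2.27), Doc2a (-1.9), Dusp1 (-1.9), Gabra5 (-1.87), Cacnb3 (-1.74), Gldc (-1.73), Gabra2 (-1.58) and Pclo (-1.44). Of these genes Doc2a, Dpysl2, Sox1, Sall2, Sst, Dusp6, Gabra2, Pclo and Gldc lost the call between E15 and the preoptic area in at least 1 alternative. On the deepest SNP alone that difference was 2.20 for Dpysl2 and 0.026 for Sall2, and without the deepest SNP it was -0.22 for Doc2a. The opposite directions of these genes are therefore uncertain. The cortex level of Adora2a was near the floor. Slc17a7 and Mef2c are known from cortical neurons and Adora2a from striatal neurons. Npy and Sst, which also mark classes of cortical neurons, stood on the preoptic and hypothalamic list above. The part of cell classes in these directions was not tested.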

How the results depend on the processing

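The 3 counts of called genes (7735, of which 3946 higher at E15 and 3789 higher in the preoptic area) stayed within 1.5 times their value in every setting run except one, the further demand for at least 2-fold, which left 4700, 2366 and 2334. Leaving out each pool in turn gave 6894 to 8066 called genes, 3491 to 4104 higher at E15 and 3403 to 3981 higher in the preoptic area; with 1 embryonic pool left, that pool is assumed to vary like the preoptic ones. DESeq2 called 7250, C57BL/6J reads alone 6990, CAST/EiJ reads alone 6945, the unrestricted SNPs of each tissue 9146, and scaling by total reads 7779, with a median log2 difference of 0.094. After the data were seen, 4 settings were added: limma-voom with a variance per tissue (6041), leaving out the deepest SNP of each gene (6609 of 11072), leaving out repeated positions (7698) and merging symbols of identical counts (7560 of 12006). Of 191 named genes, 145 kept their direction and side of the threshold in all 24 settings that gave them a value, 34 changed their call in at least 1 and 12 reversed in at least 1. The reversed log2 values were, without the deepest SNP, Atp5f1 -0.703, Bcl7a -0.134, Doc2a -0.216, Gphn -0.00488 and Ptbp1 -0.0928; on the deepest SNP alone, Clic6 0.953, Dpysl2 2.20 and Sall2 0.0259; with the unrestricted SNPs, Junb 1.29 and Rpl34 4.00; on C57BL/6J reads, Cdt1 0.386, and in the 10-pool fit, Cdt1 0.113; on CAST/EiJ reads, Clic6 0.505; and without the F1i embryonic pool, Slc12a2 0.067, which passed at -0.5425 without the F1r pool. The cause was not tested. Across 27 lists, scaling by median of ratios moved no list count by more than 1 and total reads none by more than 4, against up to 5 in limma-voom, 7 on the deepest SNP alone and 10 without it; in those 2 scalings, limma-voom and the fits on or without the deepest SNP, the majority direction turned in choroid plexus only (limma-voom), and tied there or in the cortical and striatal list in some. By replicate number, no paired analysis was possible because the columns carry no replicate number and the labels' numbers count technical libraries already summed. The match that the labels do give, by cross, is in the fit (7562 genes called without it). A fit of the 8 adult pools matched by cross and sex, added after the data were seen, called 6451 of 11246 genes between the preoptic area and the cortex, against 5813 of 11781. List counts that moved by more than 1.5 times and at least 2 genes were, on the deepest SNP alone, those higher at E15 of the glutamate receptor (8 to 15), ion channel (9 to 15), preoptic neuron (4 to 2) and respiration lists (5 to 2) and those higher in the preoptic area of the fetal RNA-binding (2 to 0) and ribosomal lists (2 to 4). Without the deepest SNP they were the preoptic neuron (4 to 2) and choroid plexus lists (5 to 3) at E15 and the choroid plexus (6 to 3) and antigen presentation lists (7 to 3) in the preoptic area, with fewer genes tested. In limma-voom they were the vesicle (5 to 3) and respiration lists (5 to 2) at E15 and the choroid plexus (6 to 2) and antigen presentation lists (7 to 3) in the preoptic area. Genes with very few reads in a tissue tended to share no SNP and then were not tested.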

Other observations

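Gene families named by their symbols, chosen after their values were seen, are given as counts without a test. Zinc finger genes (Zfp) had 112 of 216 higher at E15 and 26 higher in the preoptic area (median log2 difference 0.63). Genes of solute carriers (Slc), which move nutrients, ions and transmitters across membranes, had 35 of 189 higher at E15 and 103 higher in the preoptic area (median log2 difference -0.66). Ephrins and Eph receptors, which guide axons by contact, had 10 of 15 higher at E15 and 2 higher in the preoptic area (median log2 difference 1.05). Tubulins had 7 of 10 higher at E15 and 3 higher in the preoptic area (median log2 difference 1.3), the synaptotagmins (Syt), calcium sensors of secretion, 1 of 14 higher at E15 and 8 higher in the preoptic area (median log2 difference -1.04), and subunits of the vacuolar proton pump (Atp6) 2 of 16 higher at E15 and 10 higher in the preoptic area (median log2 difference -0.97). G protein-coupled receptor genes named Gpr had 7 of 38 higher at E15 and 19 higher in the preoptic area (median log2 difference -0.57). Over all genes tested, 32.1% were higher at E15 and 30.8% higher in the preoptic area.

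Protocadherins (Pcdh), adhesion molecules of which the clustered members share their last exons, had 23 of 61 higher at E15 and 7 higher in the preoptic area (median log2 difference 0.25). On the deepest SNP of each gene alone they had 6 of 51 higher at E15 and 21 higher in the preoptic area, and without that SNP 29 of 57 and 5. Reads on shared exons cannot be given to 1 gene, so single values of the clustered members are not given. The part of shared exons in these counts was not tested.

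Within the preoptic area, male and female pools did not overlap for Igf2, with 10.4 and 17.3 RPM in the male pools and 3.46 and 4.48 in the female pools. It was noticed in the values and not tested, with 2 pools of each sex and 2 SNPs. With so few pools such a separation often arises by chance, and its share over all genes was not counted. Among autosomes, the share of tested genes higher at E15 ran from 26.4% on chromosome 15 to 41.1% on chromosome 13.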
